A study of Bos taurus with 64 samples.

Results

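miR-26a and miR-26b are members of a small microRNA (miRNA) family, and their levels were followed across breed, diet and feed efficiency in 64 sequencing libraries of cattle skeletal muscle. They were taken by name as the entries bta-miR-26a and bta-miR-26b of the deposited count table, 2 of its 1030 miRNA names. A miRNA is a short RNA that guides silencing complexes to complementary messenger RNAs, and the bases at its 5′ end, the seed, are shared by miR-26a and miR-26b. In mammals the family sits in introns of the genes for CTD small phosphatases, which remove phosphate from the tail of RNA polymerase II and from SMAD proteins. In mouse myoblasts miR-26a is known to rise during differentiation and to repress Ezh2, the histone methyltransferase that silences muscle genes in proliferating cells, and to target Smad1 and Smad4 of the TGF-beta and BMP pathways.

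The cattle gene table used here (RefSeq, assembly ARS-UCD2.0) lists the loci MIR26A-1 within CTDSPL, MIR26A-2 within CTDSP2 and MIR26B within CTDSP1. The count table has 1 entry for miR-26a, so its loci cannot be told apart. A further name, miR-26c, whose locus MIR26C lies at the same position as MIR26A-1, was listed at 0 in all 64 libraries. By sampling alone, a count of 0 allows up to 3 counts in a library. No source used here says under which name reads of the shared position were counted, so this 0 cannot be read as absence. miR-26a and miR-26b are near-identical, and no source used here says how a read with a sequencing error was divided between them. miR-26a held a fraction of 0.5 counts in 34 libraries, 19 on concentrate and 15 on grass, whereas miR-26b held whole counts in all 64 (tolerance 0.001).

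Feed intake was recorded in 77 Holstein-Friesian and 90 Charolais steers, a dairy and a beef breed, and the libraries came from 59 of them. Steers were classed as low or high in residual feed intake (RFI, the feed eaten beyond or below what size and growth predict), a low-RFI animal being the more efficient. All were fed freshly cut perennial ryegrass in a 70-day phase and, after 14 days of acclimatisation, a barley-based concentrate with restricted grass silage in a further 70-day phase, so diet cannot be told apart from phase order or age. The 8 groups were low-RFI and high-RFI Holstein-Friesian steers on concentrate, low-RFI and high-RFI Charolais steers on concentrate, low-RFI and high-RFI Holstein-Friesian steers on grass, and low-RFI and high-RFI Charolais steers on grass, with 8 libraries each. A set of 5 steers gave a library in both phases. Library totals lay between 4795950 and 12245155 counts, with a median of 8143027. The 7 miRNAs listed as muscle fibre markers were all measured and together averaged 192774 ± 37462 CPM on concentrate and 186315 ± 56805 CPM on grass (SD, n = 32 each), while the liver marker miR-122 was too low to be tested. Most of this sum was miR-486 (110084 CPM on concentrate, 99551 CPM on grass) and miR-133a (72297 and 76326 CPM). The level of miR-1 was 288 and 207 CPM, and that of miR-206 16.6 and 12.5 CPM. CPM are counts relative to the library's size after multiplication by a TMM factor; these factors correct for a few dominant miRNAs and ran from 0.511 to 2.43.

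By share of reads, miR-26a was one of the most abundant miRNAs in these muscle libraries, and miR-26b was read at a far lower level. miR-26a was the fourth most abundant name, with a mean share of 4.83% ± 1.54 over the libraries (SD, n = 64). This share was lowest in high-RFI Holstein-Friesian concentrate replicate 3, at 1.94% (95% Wilson interval 1.93 to 1.95), and highest in high-RFI Charolais grass replicate 1, at 9.70% (9.68 to 9.72). These intervals cover counting error only, and they are far narrower than the spread between steers. Within single libraries miR-26a ranked between 2 and 5, and in 58 of 64 it ranked 4. miR-26b was the 20th most abundant name, at 0.294% ± 0.0981 of the counts, and ranked between 12 and 28. Its share ran from 0.111% (0.109 to 0.113) in high-RFI Holstein-Friesian concentrate replicate 3 to 0.602% (0.597 to 0.606) in high-RFI Holstein-Friesian grass replicate 1. The library with the lowest share of miR-26a was thus also that with the lowest share of miR-26b. With at least 174967 counts of miR-26a and 10005 of miR-26b in every library, depth did not limit either measurement.

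Levels of miR-26a ranged more widely within every group than the means of the 8 groups did. In Holstein-Friesian steers on concentrate, miR-26a ran from 36416 CPM over a median of 43967 to 57289 CPM in low-RFI steers, and from 24982 over a median of 37348 to 52473 CPM in high-RFI steers. In Charolais steers on concentrate it ran from 34811 over a median of 47204 to 64593 CPM at low RFI, and from 31515 over a median of 45056 to 66339 CPM at high RFI. These 4 concentrate groups overlapped one another, and the 2 lowest libraries of the study were both high-RFI Holstein-Friesian. On grass, low-RFI Holstein-Friesian steers ran from 32906 over a median of 42040 to 74926 CPM, and high-RFI Holstein-Friesian steers from 33056 over a median of 41967 to 83305 CPM. Low-RFI Charolais steers on grass ran from 45478 over a median of 54666 to 74346 CPM, and high-RFI Charolais steers on grass from 37208 over a median of 46371 to 74820 CPM. The highest concentrate library, at 66339 CPM, lay below 6 grass libraries, and the grass groups overlapped one another and the concentrate groups. The shallowest libraries, replicate 6 of the high-RFI and of the low-RFI Holstein-Friesian grass groups, held 81024 and 74926 CPM of miR-26a, near the top or at the top of their groups, and the part of depth in this was not tested.

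Ordered by mean, miR-26a was highest in low-RFI Charolais steers on grass (57378 ± 10430 CPM, SD, n = 8), followed by high-RFI Holstein-Friesian on grass (51801 ± 20232), high-RFI Charolais on grass (49646 ± 13271), low-RFI Charolais on concentrate (47992 ± 9303), high-RFI Charolais on concentrate (47358 ± 11007), low-RFI Holstein-Friesian on grass (46828 ± 15253), low-RFI Holstein-Friesian on concentrate (44699 ± 7344) and high-RFI Holstein-Friesian on concentrate (37038 ± 9587). Neighbours in this order differed by less than the smaller SD of the pair, except for the last step of 7661 CPM, which is set against an SD of 7344.

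miR-26b was flatter across the groups. On concentrate, its lowest, median and highest values were 2317, 2682 and 3645 CPM in low-RFI Holstein-Friesian steers and 1445, 2655 and 3864 CPM in high-RFI Holstein-Friesian steers. Charolais steers on concentrate held 1856, 2818 and 3834 CPM at low RFI, against 2048, 2706 and 3390 CPM at high RFI. The medians of these 4 groups, 2655 to 2818 CPM, lay close together beside their ranges. On grass, the values were 1929, 2554 and 5463 CPM in low-RFI Holstein-Friesian steers and 2175, 2761 and 4461 CPM in high-RFI Holstein-Friesian steers. Charolais steers on grass held 2204, 3241 and 5156 CPM at low RFI, against 2391, 2870 and 3919 CPM at high RFI. All grass groups overlapped all concentrate groups. By mean, the 4 grass groups (2938 to 3322 CPM) lay above the 4 concentrate groups (2606 to 2791 CPM), and no step between neighbours exceeded the smaller SD of the pair.

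**Figure D1:**
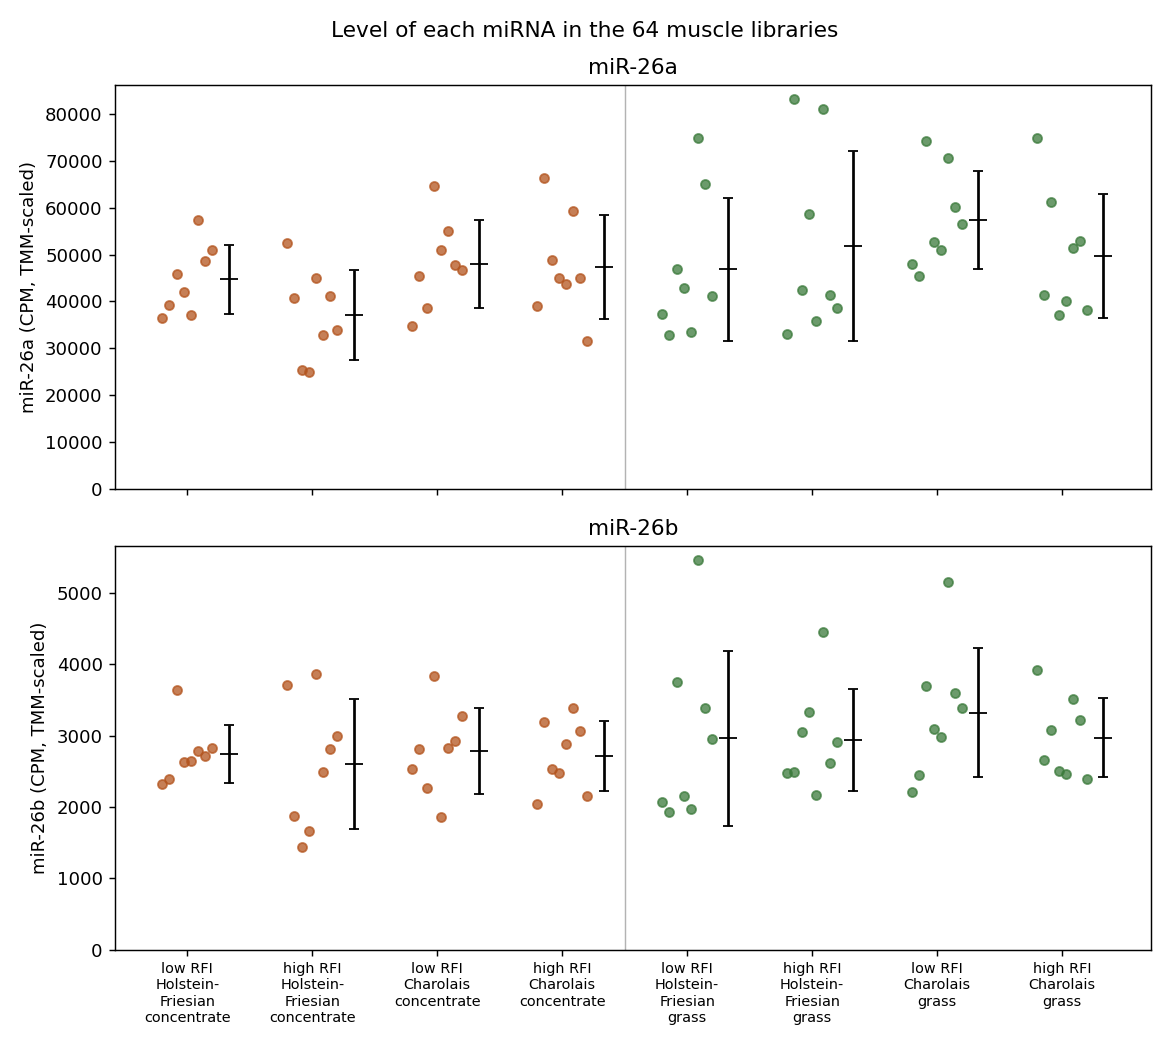
Level of miR-26a (upper panel) and miR-26b (lower panel) in TMM-scaled CPM, with 1 point per library for the 8 groups, concentrate left and grass right, and the mean ± SD (n = 8) beside each group. All groups overlap; the 2 lowest miR-26a values are in high-RFI Holstein-Friesian steers on concentrate and the 6 highest are on grass.

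The contrast on which the sampling was built, low against high RFI, gave no call for either miRNA. Over all 318 miRNAs tested, edgeR's quasi-likelihood test with Benjamini-Hochberg adjustment at 0.05 called 0.0% in low against high RFI within Charolais on grass, within Charolais on concentrate, within Holstein-Friesian on grass, within Holstein-Friesian on concentrate and on average, and 0 of the 2 members in each (unadjusted p under 0.05 in 10 to 34 miRNAs per contrast; DESeq2 and limma-voom also called 0). In Holstein-Friesian steers on concentrate other settings called a few miRNAs, neither member among them: 5 with upper-quartile scaling, 3 with library size taken as the total count less miR-10b, and 2 when the steers sampled in both phases were kept on grass only. miR-26a averaged 49224 ± 11539 CPM in low-RFI and 46461 ± 14609 CPM in high-RFI steers (SD, n = 32 each), a log2 difference of 0.09 ± 0.09 (SE, 95% interval -0.10 to 0.27, edgeR adjusted p = 1.0). The value was above the high-RFI median in 23 of 32 low-RFI libraries. miR-26b averaged 2955 ± 836 CPM in low-RFI and 2807 ± 671 CPM in high-RFI steers, a log2 difference of 0.07 ± 0.09 (-0.11 to 0.26, edgeR adjusted p = 1.0). With total-count scaling both signs turned, to -0.01 for miR-26a and -0.07 for miR-26b. The interval of the average allows a change of up to 0.27 for miR-26a and 0.26 for miR-26b on the log2 scale.

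Within single breeds and diets the intervals were wider. The most positive miR-26a value was in Holstein-Friesian steers on concentrate, where low-RFI steers averaged 44699 ± 7344 CPM and high-RFI steers 37038 ± 9587 CPM (log2 difference 0.27 ± 0.18, edgeR adjusted p = 0.631; 6 of 8 low-RFI libraries above the high-RFI median). In Charolais steers on grass the log2 difference of miR-26a was 0.21 ± 0.18 (edgeR adjusted p = 0.861; 7 of 8), and in Charolais steers on concentrate 0.02 ± 0.18 (0.988). In Holstein-Friesian steers on grass it was -0.15 ± 0.18 (edgeR adjusted p = 0.997). For miR-26b the corresponding values were 0.07 ± 0.19 in Holstein-Friesian on concentrate, 0.16 ± 0.19 in Charolais on grass, 0.04 ± 0.19 in Charolais on concentrate and 0.01 ± 0.19 in Holstein-Friesian on grass (edgeR adjusted p from 0.908 to 0.997). None of these differences passed the test. The 1 gap above an SD of its groups was that of miR-26a in Holstein-Friesian steers on concentrate, 7661 CPM beside an SD of 7344 in low-RFI and 9587 in high-RFI steers, and its log2 difference was 0.50 with upper-quartile scaling and -0.03 with total-count scaling, neither of them called.

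The breed difference of miR-26a did not pass the test. Averaged over diet and RFI class, Holstein-Friesian steers held 45092 ± 14390 CPM and Charolais steers 50593 ± 11305 CPM (SD, n = 32 each; ranges 24982 to 83305 in Holstein-Friesian and 31515 to 74820 in Charolais), a log2 difference of -0.17 ± 0.09 (95% interval -0.36 to 0.01, edgeR adjusted p = 0.177). Of the 32 Holstein-Friesian libraries, 23 lay below the Charolais median, and the ranges overlapped over most of their length. The difference was -0.23 ± 0.13 on concentrate (Holstein-Friesian 40868 ± 9149 CPM against Charolais 47675 ± 9851 CPM, edgeR adjusted p = 0.346) and -0.12 ± 0.13 on grass (Holstein-Friesian 49315 ± 17498 CPM against Charolais 53512 ± 12202 CPM, 0.555). miR-26b averaged 2813 ± 838 CPM in Holstein-Friesian and 2950 ± 669 CPM in Charolais steers (log2 difference -0.07 ± 0.09, edgeR adjusted p = 0.630), with -0.04 ± 0.13 on concentrate and -0.09 ± 0.13 on grass (adjusted p = 0.910 and 0.667). For both miRNAs, 0 of 2 members were called in a comparison where 21.7% of all tested miRNAs were called on average over the diets, 1.57% on concentrate and 29.9% on grass. The size and sign of the breed difference depended on scaling. The average for miR-26a was -0.07 with total-count scaling and -0.0063 with the total count less miR-10b (edgeR adjusted p = 0.693 and 0.955). Signs turned for miR-26b on average and for miR-26a on grass, to 0.04 and 0.01 with total-count scaling and to 0.10 for each with the total count less miR-10b. The sign for miR-26b also turned on grass and on concentrate under both of these scalings, and on grass with upper-quartile scaling. Total-count scaling and the total count less miR-10b moved the median of all miRNAs by 0.12 and 0.17, against -0.02 with TMM. Relative to that median, on average over diets, miR-26a lay between -0.19 and -0.15 and miR-26b between -0.08 and -0.04 under all 5 scalings. Scaling moves all miRNAs of a library together, so these narrow spans follow from the measure and are no test.

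Summed muscle fibre markers averaged lower, and summed smooth muscle and fibroblast markers higher, in Holstein-Friesian than in Charolais steers, with overlapping ranges. The 7 muscle fibre markers summed to 166385 ± 39880 CPM in Holstein-Friesian (87902 to 242675) and 212703 ± 44205 CPM in Charolais steers (150420 to 333438). Of these, 1 was called higher (miR-206) and 1 lower (miR-486) in Holstein-Friesian, where 21.7% of all tested miRNAs were called. Most of the sum was miR-486 (88601 ± 24781 CPM in Holstein-Friesian, 121034 ± 31932 CPM in Charolais) and miR-133a (68047 ± 21715 and 80576 ± 20872 CPM, not called). The log2 breed difference was -0.22 for miR-133b, -0.07 for miR-208b, 0.04 for miR-499 and 3.2e-05 for miR-1, none of them called. Of the 7, 1 was called higher and 2 lower on grass, and 1 higher and 0 lower on concentrate. The 4 smooth muscle and fibroblast markers summed to 32414 ± 16951 CPM in Holstein-Friesian (13864 to 112988) and 25792 ± 6194 CPM in Charolais steers (15110 to 38885). Among these 4, 2 were called higher on average, 3 on grass and 0 on concentrate, beside 21.7%, 29.9% and 1.57% of all tested miRNAs. Of the other lists, 1 of 6 leukocyte, 0 of 2 erythrocyte and 0 of 2 endothelial markers were called on average. The part of these cell types in the miR-26 values was not tested.

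Diet gave the value nearest to a call. Averaged over breed and RFI class, miR-26a held 44272 ± 9971 CPM on concentrate and 51413 ± 14992 CPM on grass (SD, n = 32 each; ranges 24982 to 66339 on concentrate and 32906 to 83305 on grass). Of the 32 concentrate libraries 21 lay below the grass median, and the medians, 44972 on concentrate and 47421 on grass, were closer than the means, since the grass libraries had the longer upper tail. The log2 difference was -0.22 ± 0.09 (95% interval -0.40 to -0.04), with an unadjusted p of 0.0200 and an edgeR adjusted p of 0.0558, just outside the threshold. miR-26b held 2715 ± 604 CPM on concentrate and 3048 ± 859 CPM on grass, and 23 of 32 concentrate libraries lay below the grass median. Its log2 difference was -0.17 ± 0.09 (-0.35 to 0.02, edgeR adjusted p = 0.158). Thus 0 of 2 members were called where 34.0% of all tested miRNAs were. In bulk muscle, fewer cells of a type and less of a miRNA per cell cannot be told apart.

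The diet difference of miR-26a was -0.28 ± 0.13 in Holstein-Friesian steers (40868 ± 9149 CPM on concentrate, 49315 ± 17498 CPM on grass, n = 16 each, edgeR adjusted p = 0.11) and -0.16 ± 0.13 in Charolais steers (47675 ± 9851 CPM on concentrate, 53512 ± 12202 CPM on grass, 0.391). For miR-26b it was -0.14 ± 0.13 in Holstein-Friesian steers (2675 ± 684 CPM on concentrate, 2950 ± 972 CPM on grass, edgeR adjusted p = 0.462) and -0.19 ± 0.13 in Charolais steers (2754 ± 532 CPM on concentrate, 3145 ± 749 CPM on grass, 0.309). Calls were 0 of 2 in each breed, against 24.2% of all tested miRNAs in Holstein-Friesian and 20.8% in Charolais steers. The tests of the differences between these effects gave 0 of 2 calls as well. The breed-by-diet interaction was -0.11 ± 0.18 for miR-26a and 0.05 ± 0.19 for miR-26b (edgeR adjusted p = 0.714 and 0.866), where 3.46% of all tested miRNAs were called. The breed-by-RFI interaction was -0.05 ± 0.18 for miR-26a and -0.06 ± 0.19 for miR-26b (both 0.966), where 0.0% were called (2 of 318 with upper-quartile scaling). The diet-by-RFI interaction was 0.11 ± 0.18 for miR-26a and -0.03 ± 0.19 for miR-26b (0.971 and 0.994), where 0.0% were called.

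**Figure D2:**
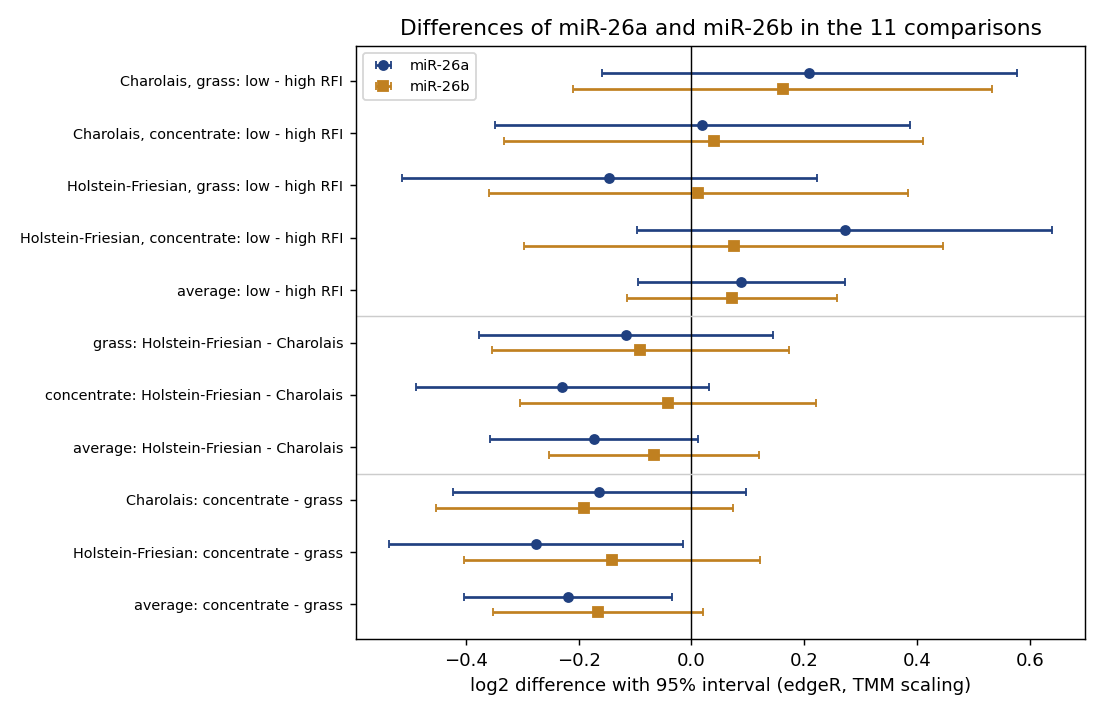
Log2 difference with its 95% interval for miR-26a (circles) and miR-26b (squares) in the 11 comparisons, from edgeR with TMM scaling; positive values mean higher in low RFI, in Holstein-Friesian or on concentrate. Only the miR-26a intervals for diet on average (-0.40 to -0.04) and in Holstein-Friesian steers (-0.54 to -0.02) leave out 0, and neither difference passes after adjustment over 318 miRNAs.

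Whether miR-26a was called between the diets turned on how the libraries were scaled and on single libraries. With total-count scaling, the log2 difference was -0.45 for miR-26a (edgeR adjusted p = 0.000159) and -0.41 for miR-26b (adjusted p = 0.00202), but that scaling moved the median of all 318 miRNAs by -0.24. Total counts are set largely by miR-10b, which took 56.8% ± 9.0 of them (SD, n = 64). With library size taken as the total count less miR-10b, the median of all miRNAs was at 0.0017 and miR-26a at -0.22 (edgeR adjusted p = 0.00957), past the threshold. With upper-quartile scaling miR-26a was also called (-0.24, 0.0172), and with RLE scaling, the method of DESeq2, it was not (-0.20, 0.0654). Relative to the median of all miRNAs, miR-26a lay between -0.24 and -0.21 and miR-26b between -0.18 and -0.16 under all 5 scalings. The miR-26a difference itself ran from -0.45 to -0.20, and its adjusted p lay on either side of 0.05. A change of scaling moves all miRNAs of a library together. The near-constant distance from the median thus follows from the measure, and is no test of the diet difference. Within Holstein-Friesian steers this distance ran from -0.32 to -0.24 for miR-26a. Leaving out single libraries moved the miR-26a difference between -0.24 and -0.19 and its adjusted p between 0.0310 and 0.102. It passed without any 1 of 18 of the 64 libraries, among them high-RFI Holstein-Friesian grass replicate 1 (adjusted p = 0.0310), without which the difference within Holstein-Friesian steers passed as well (-0.33, 0.0341).

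**Figure D3:**
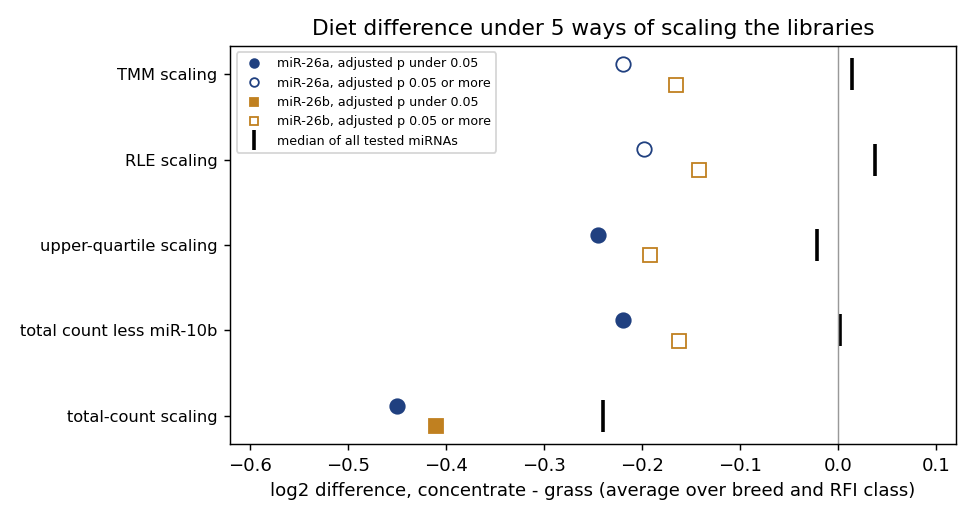
Average diet difference (concentrate minus grass, log2) of miR-26a (circles) and miR-26b (squares) under 5 ways of scaling the libraries, filled where the edgeR adjusted p was under 0.05, with the median of the 318 tested miRNAs as a bar. The distance from the bar is nearly the same in every row (-0.24 to -0.21 for miR-26a), as all miRNAs of a library are scaled together. The filled symbols vary.

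On average over breed and RFI class, most blood cell markers were called higher on concentrate with TMM scaling, where 34.0% of all tested miRNAs were called. The erythrocyte markers miR-451 and miR-144 were both higher on concentrate, and summed to 9012 ± 10416 CPM on concentrate (680 to 49568) and 3415 ± 3105 CPM on grass (300.2 to 11353). Of the 6 leukocyte markers 5 were higher on concentrate, summing to 910 ± 592 CPM on concentrate (368 to 2567) and 584 ± 292 CPM on grass (255 to 1346). Of the other lists, 1 of 7 muscle fibre markers was higher, and 0 of 2 endothelial and 0 of 4 smooth muscle and fibroblast markers were called. With upper-quartile scaling and with the total count less miR-10b, 2 of 2 erythrocyte but only 3 of 6 leukocyte markers were called higher on concentrate. With total-count scaling 0 of 2 erythrocyte and 0 of 6 leukocyte markers were called, while 3 of 4 smooth muscle and fibroblast markers and 2 of 7 muscle fibre markers were lower on concentrate. Within Charolais steers, with TMM scaling, 2 of 2 erythrocyte and 3 of 6 leukocyte markers were called higher, beside 20.8% of all tested miRNAs. Within Holstein-Friesian steers 0 of 2 and 2 of 6 were, beside 24.2%, and 1 of 4 smooth muscle and fibroblast markers was called lower. The smooth muscle and fibroblast markers summed to 26757 ± 6353 CPM on concentrate (15110 to 41574) and 31449 ± 17222 CPM on grass (13864 to 112988). None of the defining markers of these cell types was at 0, and their part in the miR-26 values was not tested.

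In the 5 steers sampled in both phases, the mean difference between diets had, with TMM scaling, the opposite sign to that between the groups. In Holstein-Friesian high-RFI replicate 1 miR-26a was 52473 CPM on concentrate and 33056 CPM on grass, and miR-26b 3707 CPM on concentrate and 2472 CPM on grass. In the low-RFI Charolais steer (replicate 4 on both diets) miR-26a was 64593 CPM on concentrate and 52770 CPM on grass, and in the high-RFI Charolais steer that is replicate 7 on concentrate and replicate 8 on grass it was 45090 CPM on concentrate and 38143 CPM on grass. These 3 steers were thus higher on concentrate, in miR-26b too. The other 2, both Charolais, were lower on concentrate, with 66339 CPM on concentrate and 74820 CPM on grass in a high-RFI steer, and 38572 CPM on concentrate and 41313 CPM on grass in a steer classed as low RFI on concentrate and high RFI on grass. The mean within-steer log2 difference was 0.19 ± 0.34 for miR-26a (SD, n = 5, two-sided exact sign-flip p = 0.3125) and 0.15 ± 0.39 for miR-26b (exact p = 0.375), with 2 of 5 steers lower on concentrate for each. With 5 pairs this exact test cannot go below p = 0.0625. As a share of all counts, miR-26a was higher on concentrate only in the low-RFI Charolais steer (4.90%, against 3.98% on grass). The Holstein-Friesian steer held 3.79% on concentrate and 8.05% on grass, with TMM factors of 0.722 and 2.43. The other Charolais steers held 4.23%, 3.99% and 2.96% on concentrate, and 4.33%, 9.70% and 4.12% on grass. By share miR-26b was higher on concentrate in the low-RFI steer and the steer of replicates 7 and 8. Paired shares were not tested.

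**Figure D4:**
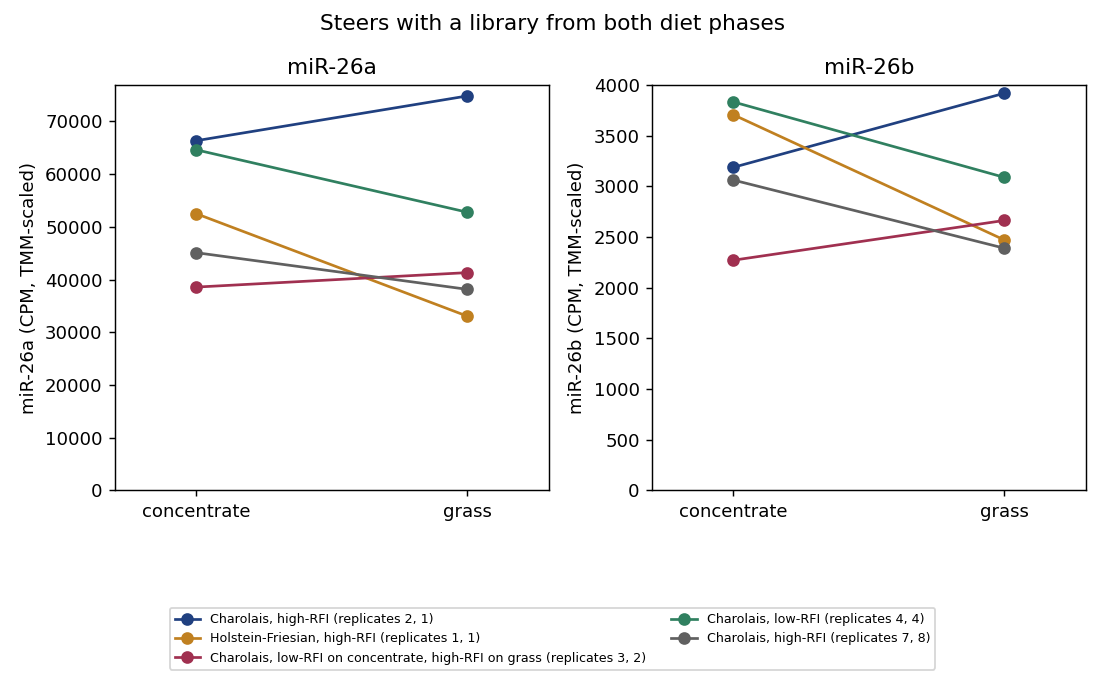
miR-26a (left) and miR-26b (right) in TMM-scaled CPM in the 5 steers with a library from both phases, concentrate left and grass right, with a line per steer and its replicate numbers on concentrate and grass in the legend. With this scaling both miRNAs are higher on concentrate in 3 steers and lower in 2, and the lines of the 2 miRNAs have the same direction in each steer.

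The ratio of miR-26a to miR-26b is a ratio of read counts within a library and does not depend on scaling. It averaged 16.9 ± 3.51 over the 64 libraries, so miR-26b made up 5.78% ± 0.963 of the reads of the pair (SD, n = 64). Group means ran from 14.9 ± 3.43 in high-RFI Holstein-Friesian steers on concentrate to 17.8 ± 6.62 in high-RFI Holstein-Friesian steers on grass. Single libraries ran from 11.3, in high-RFI Holstein-Friesian concentrate replicate 8, to 33.5, in high-RFI Holstein-Friesian grass replicate 2. This grass library held the highest miR-26a level of the study beside 2488 CPM of miR-26b, which is below the grass median of 2972. The smallest p among the 11 comparisons of the log2 ratio was for breed on concentrate, 3.94 ± 0.27 in Holstein-Friesian and 4.11 ± 0.25 in Charolais steers (SD, n = 16 each, two-sided permutation p = 0.0859, adjusted p = 0.767 over 11 comparisons; 11 of 16 Holstein-Friesian libraries below the Charolais median). On average over diets the log2 ratio was 4.0 ± 0.31 in Holstein-Friesian and 4.10 ± 0.22 in Charolais steers (permutation p = 0.139, adjusted p = 0.767). Between diets it was 4.03 ± 0.27 on concentrate and 4.07 ± 0.27 on grass (permutation p = 0.537), and between RFI classes 4.07 ± 0.24 at low and 4.03 ± 0.30 at high RFI (permutation p = 0.519). No comparison of the balance between the members passed, and the sign of the RFI difference within Holstein-Friesian steers on grass (-0.07, exact permutation p = 0.761) turned to 0.07 without high-RFI replicate 2.

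The 2 miRNAs varied together from steer to steer. In log2 CPM, as deviations from the 8 group means, Pearson's r was 0.72 and Spearman's rho 0.73 over 64 libraries (permutation p = 1e-05 for both, the smallest that 100000 resamples can give). Without the 2 libraries farthest from the median of miR-26a, r was 0.76. Within breed and diet (n = 16 each) r was 0.74 in Holstein-Friesian on concentrate, 0.62 in Charolais on concentrate, 0.71 in Holstein-Friesian on grass and 0.84 in Charolais on grass (permutation p = 0.00634, 0.0125, 0.00148 and 2e-05). These are 4 strata of 1 relation, and all were positive. With total-count scaling r was 0.78, and with the group means kept it was 0.74. Both values of a library share its scaling factor, and 5 steers are present in 2 libraries each.

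**Figure D5:**
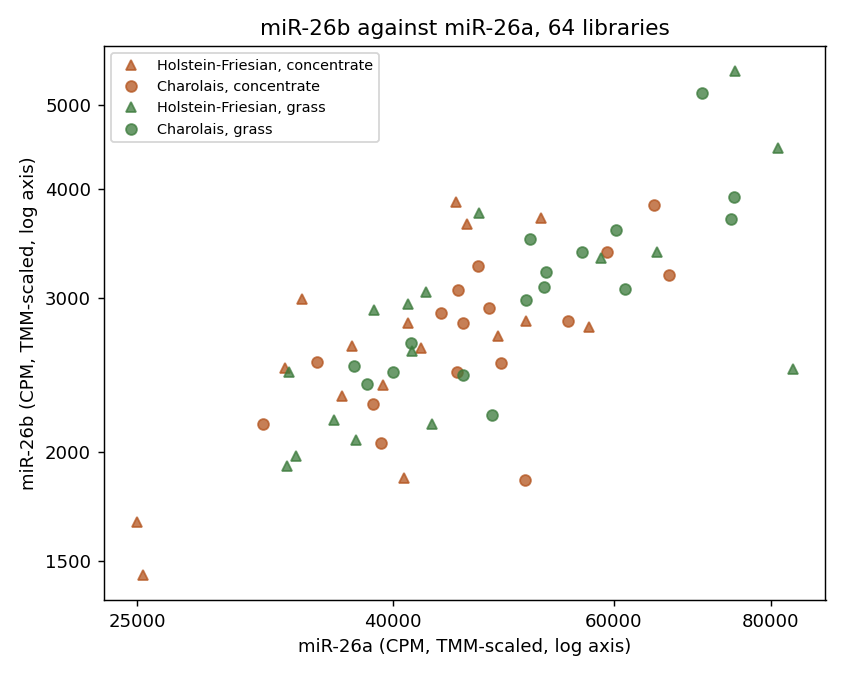
miR-26b against miR-26a in TMM-scaled CPM on logarithmic axes, 1 point per library, triangles for Holstein-Friesian and circles for Charolais steers, brown for concentrate and green for grass. The points rise together (r = 0.72 as deviations from group means), with high-RFI Holstein-Friesian grass replicate 2 at the far right below the rest (83305 CPM of miR-26a, 2488 CPM of miR-26b).

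Among the 171 tested miRNAs that averaged at least 10 CPM, miR-26b was the one most like miR-26a, by Pearson's r of the same deviations over 64 libraries. It was followed by let-7c (0.59), miR-148b (0.59), miR-660 (0.58) and let-7g (0.56), while the median over the 171 was 0.15. let-7c and let-7g belong to the let-7 family, which rises as cells differentiate. For miR-26b the order was different, with miR-125a (0.79) and miR-125b (0.78) ahead of miR-26a (0.72), then let-7g (0.70) and the muscle-specific miR-133a (0.67), against a median of 0.16. With total-count scaling the same pairs had r of 0.78 for miR-26a with miR-26b, 0.71 for miR-26a with let-7c, 0.87 for miR-26b with miR-125a and 0.80 for miR-26b with miR-125b. These values are descriptions, since all miRNAs of a library share its depth and scaling.

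Of 27 other miRNAs known as regulators of myogenesis, 25 were tested. Between the breeds, on average, 9 were higher and 3 lower in Holstein-Friesian steers, where 21.7% of all tested miRNAs were called (median of the list 0.07, of all miRNAs -0.02). The split was 9 and 1 with total-count scaling (median of the list 0.22, of all miRNAs 0.12) and 13 and 1 with the total count less miR-10b (0.26 and 0.17). On grass, with TMM scaling, 10 were higher and 5 lower, where 29.9% of all tested miRNAs were called. On concentrate 1 was higher and 0 were lower, where 1.57% of all tested miRNAs were called. miR-31, a satellite-cell miRNA that in mouse holds back Myf5 translation, was 0.890 ± 0.553 CPM in Holstein-Friesian and 0.457 ± 0.296 CPM in Charolais steers (log2 difference 0.91 ± 0.24, edgeR adjusted p = 0.00502). At a median library total of 8143027 counts, these levels of miR-31 are only a few counts per library. The muscle-specific miR-206 was 19.0 ± 8.97 CPM in Holstein-Friesian and 10.1 ± 5.22 CPM in Charolais steers (0.89 ± 0.16, adjusted p = 6.37e-05). miR-222, which in mouse myoblasts falls as they differentiate, was 7.94 ± 2.66 CPM in Holstein-Friesian and 5.60 ± 2.03 CPM in Charolais steers (0.52 ± 0.12, 0.00105), and miR-486, made from an intron of ANK1, was 88601 ± 24781 CPM in Holstein-Friesian and 121034 ± 31932 CPM in Charolais steers (-0.46 ± 0.10, 0.000683). All these calls of the average breed difference held under the 4 other scalings.

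Between the diets 4 of these 25 were higher and 4 lower on concentrate, a share close to the 34.0% called over all tested miRNAs (median of the list -0.02, of all miRNAs 0.01). miR-424-5p was 20.4 ± 6.5 CPM on concentrate and 36.8 ± 11.2 CPM on grass (log2 difference -0.86 ± 0.11, edgeR adjusted p = 9.43e-10), and miR-127, of the imprinted DLK1-DIO3 region, 795 ± 201 CPM on concentrate and 1398 ± 373 CPM on grass (-0.80 ± 0.09, 2.07e-11). miR-1, a muscle-specific miRNA that in mouse represses Hdac4, was 288 ± 79.4 CPM on concentrate and 207 ± 48.7 CPM on grass (0.47 ± 0.09, 2.99e-05), and miR-29b, a repressor of collagen messengers, 22.1 ± 4.18 CPM on concentrate and 16.4 ± 5.77 CPM on grass (0.45 ± 0.09, 0.00014). The falls of miR-424-5p and miR-127 held under the 4 other scalings, whereas with total-count scaling miR-1 and miR-29b, each at 0.21, no longer passed and 0 of 25 were higher and 12 lower. Of 5 further miRNAs reported to target EZH2 in human or mouse cells, 4 were tested. miR-101 was lower in Holstein-Friesian steers at 2470 ± 414 CPM, against 3205 ± 569 CPM in Charolais steers (-0.37 ± 0.06, adjusted p = 5.01e-05, but 0.158 with total-count scaling). miR-98 was higher on concentrate at 215 ± 27.0 CPM, against 197 ± 28.6 CPM on grass (0.13 ± 0.05, adjusted p = 0.0368), but it passed with 1 of the 4 other scalings, RLE (0.00869). It did not pass with upper-quartile scaling (0.09, adjusted p = 0.138), the total count less miR-10b (0.13, 0.0837) or total-count scaling (-0.12, 0.385). Between the diets within Charolais steers 0 of these 4 were called. Within Holstein-Friesian steers 0 were higher and 1 was lower on concentrate. Between RFI classes 0 of the 25 and 0 of the 4 were called.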

How the data were processed

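A table of estimated counts per miRNA was deposited by the authors without normalization, for 1030 names and 64 libraries, with 0 columns left without a sample. Of these names 61 held fractions, which were rounded off before the tests. The submitters' processing notes name cutadapt 2.6, FastQC 0.11.8, edgeR 3.5, R 3.4 and build ARS-UCD 1.2 with no role for any. No source used here gives the aligner or counter. The labels' protocols give a Qiagen RNeasy Plus kit for the RNA and a TruSeq stranded RNA kit for the libraries. 1 name with empty cells was left out.

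Groups came from the labels, and replicates were separate steers. edgeR 4.0.16 in R 4.3.3 was fitted to 8 group means with TMM factors after filterByExpr, which left 318 names; the names not tested held 0.00592% of the counts. All 14 contrasts (RFI as low minus high, breed as Holstein-Friesian minus Charolais, diet as concentrate minus grass, and their interactions) used the quasi-likelihood test with Benjamini-Hochberg adjustment at 0.05 over 318 names; p-values of single miRNAs come from this fit unless another tool is named. The fit was also run on simulated counts with a common spread and independent libraries, which differs from these data. No result here rests on that run. Log2 ratios were compared by permutation within the other factors (exact for 8 against 8, otherwise 100000 resamples), and correlations used log2 CPM with a prior count of 2. Pairing of 5 steers across phases comes from animal numbers in the labels (estimated correlation 0.392 between libraries of an animal), and the animal was a block only in alternatives. Alternatives were RLE, upper-quartile and total-count scaling, total count less miR-10b, no filter, DESeq2 1.42.0, limma-voom (limma 3.58.1), animal blocks, and libraries left out.

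The members and lists were chosen with earlier results of these data known. Named besides the members were the 5 miRNAs of at least 10 CPM most correlated with each, other miR-26 names, and up to 4 listed miRNAs with the largest called average breed or diet difference; miR-10b, the cell-type markers and pairs without this rank were named after their values were seen.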

Additional observations from a re-analysis of the deposited data

Results flagged for a closer look

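In each of the 8 groups the highest and lowest library was set against its neighbours for miR-26a, miR-26b and their log2 ratio, 24 groups of values in all. Chance alone marks about 1 in 20 such groups, and 2 were marked here. miR-26b in low-RFI Holstein-Friesian concentrate replicate 3 was 3645 CPM, against a group median of 2682 CPM, and the gap to the next library was 0.617 of the group's range (critical value 0.526). The log2 ratio of miR-26a to miR-26b in high-RFI Holstein-Friesian grass replicate 2 was 5.07, against a group median of 4.02, with a gap of 0.661 of the range. This library held the highest miR-26a level of the 64.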

How the results depend on the processing

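All differences are log2, and the cause of a change was not tested. Under the alternatives that keep all libraries or leave out a set of them, 9 results passed the threshold that had not, 48 changed sign and 247 did neither. For diet, on average and within Holstein-Friesian, miR-26a passed under total-count scaling (-0.45 and -0.53), upper-quartile scaling (-0.24 and -0.34) and the total count less miR-10b (-0.22 and -0.32), and on average without the filter (-0.25). miR-26b passed with total-count scaling (-0.41 and -0.45). The values that changed sign had not passed in either setting. With RLE scaling, miR-26a was -0.0072 for low against high RFI in Charolais on concentrate, and miR-26b -0.068 for low against high RFI in Holstein-Friesian on grass, -0.048 for breed by diet and 0.021 for diet by RFI; DESeq2 gave the same 4 values. With upper-quartile scaling, miR-26a was -0.15 for RFI in Charolais on concentrate and 0.13 for breed by RFI, and miR-26b was -0.12 for RFI in Charolais on concentrate, -0.012 for RFI in Holstein-Friesian on grass, 0.023 for breed on grass, -0.055 for breed by diet, 0.12 for breed by RFI and 0.015 for diet by RFI. With total-count scaling, miR-26a was -0.033 for RFI in Holstein-Friesian on concentrate, -0.015 for average RFI and 0.011 for breed on grass, and miR-26b was -0.0073 for RFI in Charolais on grass, -0.19 and -0.25 for RFI in Holstein-Friesian on grass and on concentrate, -0.070 for average RFI, 0.079, 0.0050 and 0.042 for breed on grass, on concentrate and on average, -0.074 for breed by diet and 0.054 for diet by RFI. With the total count less miR-10b, miR-26a was 0.096 for breed on grass, and miR-26b was -0.015 for RFI in Charolais on grass, -0.084 and -0.012 for RFI in Holstein-Friesian on grass and on concentrate, 0.13, 0.063 and 0.096 for breed on grass, on concentrate and on average, -0.066 for breed by diet and 0.10 for diet by RFI. Without the filter, miR-26b was -0.053 for RFI in Holstein-Friesian on grass, -0.0070 for breed by diet and 0.020 for diet by RFI, and with limma-voom it was -0.044 for RFI in Holstein-Friesian on grass and 0.037 for diet by RFI. With the animal as a random replicate block the last 2 were -0.0080 and 0.024. The replicate block, random or fixed, changed no call: the average diet difference of miR-26a was -0.17 (adjusted p = 0.117) with the random and -0.22 (0.0503) with the fixed block. When the 5 repeated steers were kept on grass only, miR-26b was -0.059 for RFI in Holstein-Friesian on grass, -0.025 for breed by diet and 0.015 for diet by RFI, and the log2 ratio difference for RFI in Charolais on concentrate was 0.015.

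Leaving out single libraries moved the average diet difference of miR-26a between -0.24 and -0.19 and that in Holstein-Friesian steers between -0.33 and -0.21. The average passed without any of high-RFI Holstein-Friesian concentrate replicates 1 and 5, low-RFI Holstein-Friesian concentrate replicate 6, high-RFI Charolais concentrate replicates 2 and 6, low-RFI Charolais concentrate replicate 4, high-RFI Holstein-Friesian grass replicates 1, 5, 7 and 8, low-RFI Holstein-Friesian grass replicates 1, 2 and 5, high-RFI Charolais grass replicates 4, 5 and 8, and low-RFI Charolais grass replicates 1 and 2. Signs changed in values near 0: miR-26a ran from -0.054 to 0.10 for RFI in Charolais on concentrate and from -0.12 to 0.014 for breed by RFI. miR-26b ran from -0.040 to 0.11 for RFI in Charolais on concentrate, from -0.014 to 0.18 and from -0.17 to 0.12 for RFI in Holstein-Friesian on concentrate and on grass, from -0.15 to 0.0019 for breed by RFI, from -0.053 to 0.14 for breed by diet, from -0.094 to 0.0025 for breed on concentrate and from -0.085 to 0.063 for diet by RFI. The log2 ratio difference ran from -0.097 to 0.046 for RFI in Charolais on concentrate, from -0.12 to 0.072 for RFI in Holstein-Friesian on grass and from -0.026 to 0.045 for diet in Charolais. Adding 0.5 to both counts moved no ratio result across the threshold.

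Counts of all called miRNAs moved by over 1.5 times in some settings. Total-count scaling called 40 for breed on average against 69 with TMM, 50 against 95 for breed on grass, 42 against 66 for diet in Charolais and 1 against 11 for breed by diet, and for average diet it split 7 higher and 118 lower against 57 and 51. For low against high RFI in Holstein-Friesian on concentrate, 0 with TMM became 5 with upper-quartile scaling, 3 with the total count less miR-10b and 2 without the repeated steers' concentrate libraries, and breed by RFI became 2 with upper-quartile scaling. The total count less miR-10b called 114 for average breed (109 higher, 5 lower, against 35 and 34).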

Other observations

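miR-10b, the dominant miRNA, ran with the members under one scaling and against them under another. Over 64 libraries, as deviations from the group means, its Pearson's r with miR-26a was 0.40 with TMM scaling and -0.65 with total-count scaling, and with miR-26b it was 0.25 and -0.70. miR-451 of erythrocytes had r of -0.43 with miR-26a and -0.54 with miR-26b under TMM, and 0.16 and 0.071 with total-count scaling. The leukocyte miRNA miR-142-3p had the lowest r of the 171 compared under TMM, -0.46 with miR-26a and -0.64 with miR-26b, and 0.25 and 0.14 with total-count scaling. The correlation of the members with each other kept its sign and size under both (0.72 and 0.78).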
